A study of Mus musculus with 60 samples.

Results

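Bacterial communities of lung tissue were set against those of stool, both taken at day 28 from the same study of male mice. The members were chosen by sample title and time label: 12 lung libraries and 12 stool libraries, 24 of the 60 libraries in the series. They fall into 4 of its 10 groups, with 6 libraries in each. Lung and stool from PET mice come from animals given polyethylene terephthalate nanoparticles by oral gavage, at 0.5 mg/day in 0.1 ml daily for 28 days, and lung and stool from control mice come from animals that were not exposed. The design names 12 mice, 6 per arm. No strain or age is used here, and no label ties a lung library to a stool library of the same animal, so p-values measure the spread between libraries. Per the labels, lung DNA was extracted with the DNeasy Blood and Tissue kit and stool DNA with the DNeasy PowerLyzer PowerSoil kit. Sample type and kit therefore cannot be told apart in any comparison below, and extraction blanks were not analysed here.

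The distal gut of a mouse holds a dense community of anaerobes, in which families such as Lachnospiraceae and Muribaculaceae ferment fibre and host glycans. Lung tissue holds far fewer bacterial cells. Its bacterial DNA is known to include material carried down from the mouth and upper airway, and amplification of such a sparse template also picks up DNA from reagents and the laboratory. The assay amplified and sequenced 1 variable part of the bacterial 16S rRNA gene (V3 and V4), which differs between taxa. A feature is 1 distinct amplicon sequence, a genus can hold many features, and a share is the percent of a library's prokaryote counts. Shares say nothing of the number of bacteria per gram, so a lower share can stand for fewer cells or for more of everything else.

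Total counts per library ran from 10543 to 326834 in lung and from 245032 to 602305 in stool. Prokaryote features held all but 1.53% to 33.99% of lung counts and all but 0.00638% to 0.0411% of stool counts. At the smallest prokaryote total, 10083 counts in lung PET 6, a share of 1% has a 95% Wilson interval of 0.825% to 1.22%, and a count of 0 allows a share of up to 0.0298%; such intervals cover counting error only. The library stool control 1 stands apart from the other stool libraries. It held 882 features against 481 to 541 in the other control stool libraries, and 294 of its features were also found in lung, against at most 149 for each other stool library. It also has the highest stool share of many genera that lead in lung, and results that rest on it are given with and without it where both were computed.

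Lung and stool communities had little in common, and lung libraries differed far more from each other than stool libraries did. Bray-Curtis distance, which is 0 for identical feature shares and 1 for no shared feature, averaged 0.976 between a lung and a stool library, with a lowest value of 0.887 and a highest value of 0.998. Pairs of lung libraries averaged 0.813 (0.445 to 0.939) and pairs of stool libraries averaged 0.556 (0.431 to 0.688). Sample type held an R2 of 0.358 of the variation in distances, the largest value among 853776 arrangements of site labels within each arm (exact permutation test, p = 2.34e-06, the smallest they can give). Within the PET mice alone R2 was 0.413 and within the control mice alone 0.377 (exact permutation p = 0.00216 in each, the smallest 6 against 6 libraries allow). The mean distance of a library to its own group was 0.255 higher in lung than in stool (exact two-sided permutation test, adjusted p = 7.03e-06 over 3 measures).

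**Figure D1:**
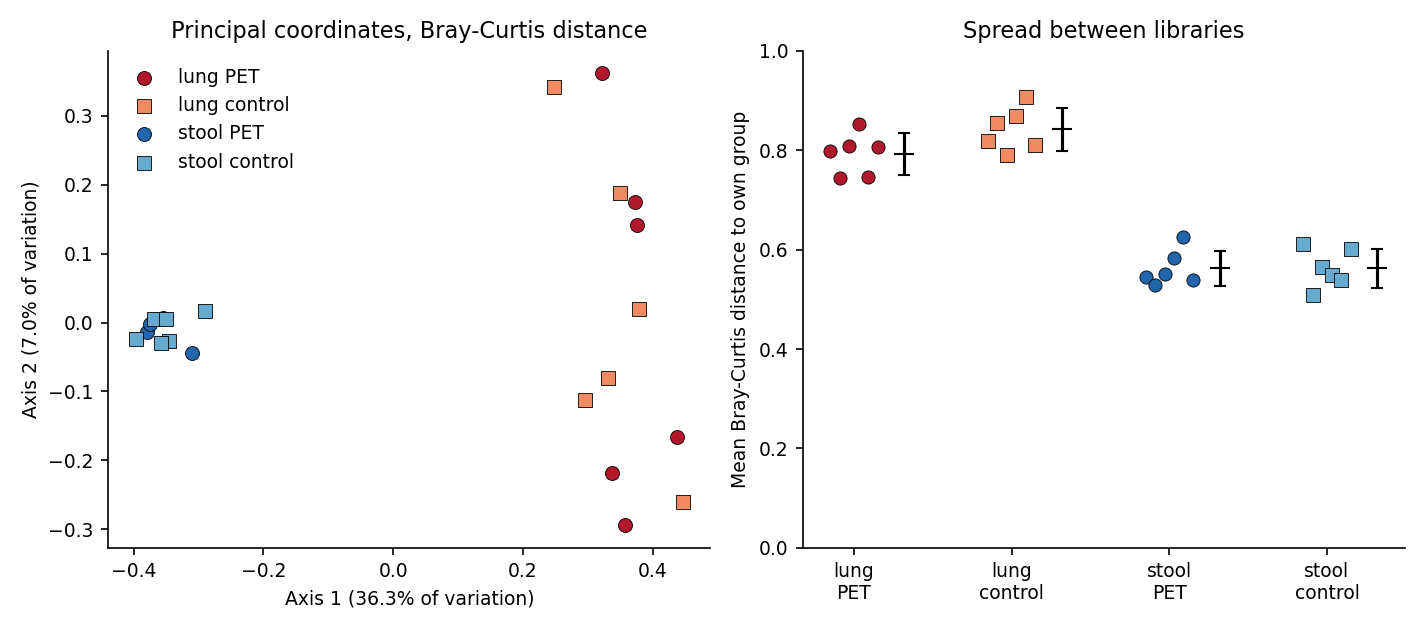
Left, principal coordinates of Bray-Curtis distances between feature shares for 6 libraries each of PET lung, control lung, PET stool and control stool; axis 1, with 36.3% of the variation, parts all lung from all stool libraries. Right, each library's mean Bray-Curtis distance to the other libraries of its group, with the mean and SD beside the points; every lung library lies above every stool library.

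The lung libraries did not share 1 leading genus. Akkermansia, a mucin degrader, held 52.7% of lung PET 4, and Escherichia-Shigella, a label that covers Escherichia coli and its close kin, held 42.9% of lung PET 3. Bacteroides, gut anaerobes that break down polysaccharides, held 47.1% of lung control 5. The soil and plant group Burkholderia-Caballeronia-Paraburkholderia led in lung PET 2, lung PET 5 and lung control 3, at 13.7%, 20.8% and 18.1%. In all, 6 genera led the 12 lung libraries and 5 led the 12 stool libraries, where the first genus held between 10.8% and 20.6%.

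At a common depth of 10083 counts, feature diversity did not pass a test between the sites, but the result turned on which features were counted, and lung values ran over a wider range (the spread of diversity was not tested). The Shannon index ran from 2.70 over a median of 4.70 to 6.06 in lung, against 4.56, 4.72 and 4.87 in stool. Richness, the expected number of features, ran from 267 over 378 to 904 in lung, against 355, 401 and 564 in stool. The stool range lies inside the lung range for both measures. Lung minus stool came to -0.13 for the Shannon index and 35.4 features for richness (exact two-sided permutation tests, adjusted p = 0.679 for each). Counted in genera, lung libraries were richer: 152 ± 27.6 genera in lung and 67.9 ± 10.7 in stool (SD, n = 12 each), a difference of 84.3 (exact permutation p = 2.34e-06), with no overlap between the sites. The Shannon index of genera was 0.53 higher in lung (exact permutation p = 0.00947). Features seen in only 1 of the 60 libraries of the series were then left out, and the common depth was reset to the lowest total that remained. Lung minus stool was then -126.1 features and -0.67 for the Shannon index (exact permutation p = 3.51e-05 and 4.69e-05), so the direction of both measures depends on what is counted. Without lung PET 1 the richness difference was -13.0 and without lung control 4 it was -2.74.

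Bacteroidota and Campilobacterota held smaller shares of lung than of stool, while Proteobacteria, Actinobacteriota and Fusobacteriota held larger ones. Of 14 phyla tested, 13 passed an exact permutation test on log2 shares with Benjamini-Hochberg adjustment (92.9%), 7 higher (50%) and 6 lower (42.9%) in lung. Proteobacteria, the phylum of enterobacteria and many water and soil bacteria, ran from 2.31% over 16.4% to 53.2% in lung, against 0.0702%, 0.395% and 2.34% in stool (adjusted p = 1.09e-05, exact permutation). Actinobacteriota, which include skin bacteria and bifidobacteria, ran from 0.391% over 6.93% to 12.2% in lung, against 0.0688%, 0.155% and 0.390% in stool, and did not overlap. Bacteroidota ran from 6.07% over 18.2% to 62.0% in lung, against 35.1%, 44.9% and 50.1% in stool, and overlapped (adjusted p = 9.84e-05, exact permutation). Fusobacteriota, known from the mouth, were found in 10 of 12 lung libraries at up to 7.66% and in no stool library. Firmicutes, the phylum of Lachnospiraceae and lactobacilli, averaged 41.5% ± 16.2 in lung and 47.7% ± 4.17 in stool (SD, n = 12 each), a difference that did not pass the test (adjusted p = 0.0904, exact permutation). The Firmicutes difference did pass without lung PET 6 or lung control 2 (adjusted p = 0.0179 and 0.0371, exact permutation). Patescibacteria, the phylum with the highest adjusted p among those that passed (0.0429), lost its call with plain shares (adjusted p = 0.347, exact permutation). Leaving out 1 library ended it for all but lung PET 1, 2 and 5, lung control 4 and 6, stool PET 3 and stool control 1, 4 and 5. Where all stool libraries are at 0, a log2 share in this test also depends on depth.

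Most genera that could be tested differed between the sites. edgeR's quasi-likelihood test with exposure as a block called 214 of 257 genera after Benjamini-Hochberg adjustment (83.3%), 170 higher in lung (66.1%) and 44 lower (17.1%). The higher genera together held 74.2% ± 17.96 of lung counts and 0.724% ± 1.04 of stool counts, and the lower ones held 7.54% ± 4.38 of lung counts and 83.3% ± 5.14 of stool counts (SD, n = 12 each). Of the 170 higher genera, 89 had no stool count and so could only be called higher, and 71 were detected in fewer than 6 lung libraries. After all libraries were thinned to 10083 counts, an exact permutation test per genus called 54.1% of genera, 98 higher (38.1%) and 41 lower (16.0%), of which 92 and 38 were also called by edgeR in the same direction. The share of calls that were higher in lung was 79.4% in edgeR, 66.3% in DESeq2 and 56.0% in limma on centred log ratios. The median log2 difference over all genera tested was 6.44 with TMM scaling, 7.43 with library totals and 1.04 with centred log ratios, so each fold below is relative to a scale that moves.

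Among the 10 leading genera of lung, Escherichia-Shigella, Prevotella, UCG-002, Faecalibacterium, Veillonella and Subdoligranulum each had every lung library above every stool library. Over all genera tested, 33 of 257 (12.8%) had no overlap between the sites, in either direction. The 10 were picked by their mean lung share, which favours genera that lie above stool. Escherichia-Shigella ran from 0.190% over 1.29% to 42.9% in lung, against 0%, 0.00416% and 0.0296% in stool. Its edgeR log2 difference was 9.05 (SE 1.27, adjusted p = 6.86e-08). Faecalibacterium, a butyrate producer best known from the human colon, ran from 0.427% over 2.99% to 10.04% in lung, against 0%, 0.00416% and 0.0893% in stool, a log2 difference of 7.49 (SE 1.22, adjusted p = 1.40e-06, edgeR). Prevotella, a fibre-degrading genus of gut and mouth, ran from 0.212% over 3.33% to 14.7% in lung and was found in 2 of 12 stool libraries, at up to 0.0521% (log2 difference 9.84, SE 1.605, adjusted p = 1.40e-06, edgeR). Subdoligranulum, another butyrate producer, averaged 2.14% ± 2.47 in lung and 0.00260% ± 0.00804 in stool, and UCG-002, an Oscillospiraceae label, averaged 3.002% ± 4.52 and 0.000927% ± 0.00321 in lung and stool (SD, n = 12 each). Stool control 1 had the highest stool share of all 6, and it was the only stool library with counts of UCG-002 or Veillonella.

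Akkermansia, Burkholderia-Caballeronia-Paraburkholderia and Blautia, also among the leaders of lung, overlapped with stool. Akkermansia ran from 0% over 0.359% to 52.7% in lung, against 0%, 0.00112% and 0.0176% in stool, and its lung mean of 5.44% was 1.14% without lung PET 4. It was higher in lung by edgeR's test (log2 difference 10.17, SE 1.73, adjusted p = 2.91e-06). Burkholderia-Caballeronia-Paraburkholderia ran from 0.747% over 4.71% to 20.8% in lung, against 0%, 0.00622% and 0.980% in stool (log2 difference 6.37, SE 1.497, adjusted p = 0.000176, edgeR). The highest stool value, 0.980%, is stool control 1, and it overlaps the lowest lung value. In control mice alone the call was lost (log2 difference 3.04, adjusted p = 0.0720). Blautia, an acetate-producing Lachnospiraceae genus, had 0.471%, 1.596% and 10.1% as its lowest, median and highest share in lung, against 0.0288%, 0.150% and 1.15% in stool. Its edgeR call (log2 difference 2.12, SE 0.84, adjusted p = 0.0180) was lost without lung control 5, without stool PET 1, 2 or 6 and without stool control 2, 3, 4, 5 or 6, where adjusted p ran up to 0.0748. The difference was -0.05 with DESeq2 and -0.71 with centred log ratios (adjusted p = 0.952 and 0.411).

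Genera on a list named for the mouth and upper airway of rodents were higher in lung as a list. Of 16 listed genera 15 were tested, 12 were called higher and none lower, beside 66.1% and 17.1% of all genera tested. The 8 tested genera with no stool count passed the count filter through lung alone and could only be called higher. The median log2 difference of the 15 was 10.96, beside 6.44 for all genera tested (11.27 and 7.08 with genera absent from 1 site at their bound). Together they held 0.374% to 31.4% of lung counts, with a median of 4.07%, and at most 0.428% of stool counts. Streptococcus, the leading genus of the oral swabs at a mean of 30.3%, ran from 0.172% over 1.49% to 3.82% in lung, against 0%, 0.0213% and 0.0321% in stool, with no overlap (log2 difference 5.63, SE 1.06, adjusted p = 1.19e-05, edgeR). Veillonella, a lactate user of the mouth, ran from 0.0191% over 0.712% to 7.63% in lung. Neisseria, a genus of mucosal surfaces, was found in 11 lung libraries at up to 5.71% and in no stool library, and Fusobacterium, an oral anaerobe, in 9 lung libraries at up to 5.82% and in no stool library. Against a floor of 3 counts over all stool libraries, the pooled lung shares of Neisseria and Fusobacterium were at least 22427-fold and 23730-fold higher (edgeR adjusted p = 1.08e-08 and 6.86e-08). Both are among the 8 genera that could only be called higher. Porphyromonas, Leptotrichia and Selenomonas, further oral anaerobes named for the size of their change, reached 4.65%, 1.89% and 1.95% of a lung library. The oral swabs, which share a kit with stool, held 0.00724% Neisseria and 0.00649% Fusobacterium on average. The mean lung shares of these genera were 1.59% and 1.22%. The list name therefore does not say that each member was common in the mouths of these mice.

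Every tested member of the lists of enterobacteria, common reagent genera and skin genera was called higher in lung by edgeR, beside 66.1% of all genera tested, and fewer were by the permutation test on thinned libraries, which called 38.1% of all genera higher. Of 7 enterobacterial genera tested, 7 were called higher by edgeR and 2 by permutation. No stool library had a count of 5 of the 7, so these passed the count filter through lung alone and could only be called higher. Among the 5 was Klebsiella, an opportunistic pathogen found in 6 lung libraries at up to 2.45%. Of 12 tested genera on a list of common reagent taxa, which are often reported from blank extractions, 12 were called higher by edgeR and 7 by permutation. Of these, 4 had no stool count and could only be called higher. Their median log2 difference was 6.78, beside 6.44 for all genera tested. They held 0.945% over 7.52% to 29.8% of lung counts, against at most 1.33% of stool counts, the last in stool control 1. Sphingomonas, a water bacterium, ran from 0.0526% over 1.31% to 5.34% in lung, against 0%, 0% and 0.182% in stool (log2 difference 6.77, SE 1.74, adjusted p = 0.000452, edgeR). Leifsonia, a soil genus, ran from 0.0717% over 0.927% to 4.75% in lung, against 0%, 0% and 0.137% in stool (log2 difference 7.49, SE 1.94, adjusted p = 0.000496, edgeR). Of 6 skin and bedding genera tested, 6 were higher by edgeR and 3 by permutation. Again 4 had no stool count and could only be called higher, Cutibacterium among them. Cutibacterium, a genus of skin, was in all 12 lung libraries, from 0.00956% over 0.453% to 2.77%, and in no stool library (at least 9871-fold higher, edgeR adjusted p = 4.96e-08), and Staphylococcus averaged 0.540% ± 0.464 in lung and 0.000310% ± 0.00107 in stool (SD, n = 12 each). Across the 12 lung libraries the summed reagent share had a Pearson correlation of -0.50 with log10 prokaryote counts, and a Spearman correlation of -0.43. Adjusted permutation p was 0.293 and 0.253 over 3 relations. The Pearson value was -0.63 without the 2 libraries farthest from the median, -0.29 within PET lung and -0.55 within control lung. The part of the reagent share in the differences was not tested.

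**Figure D2:**
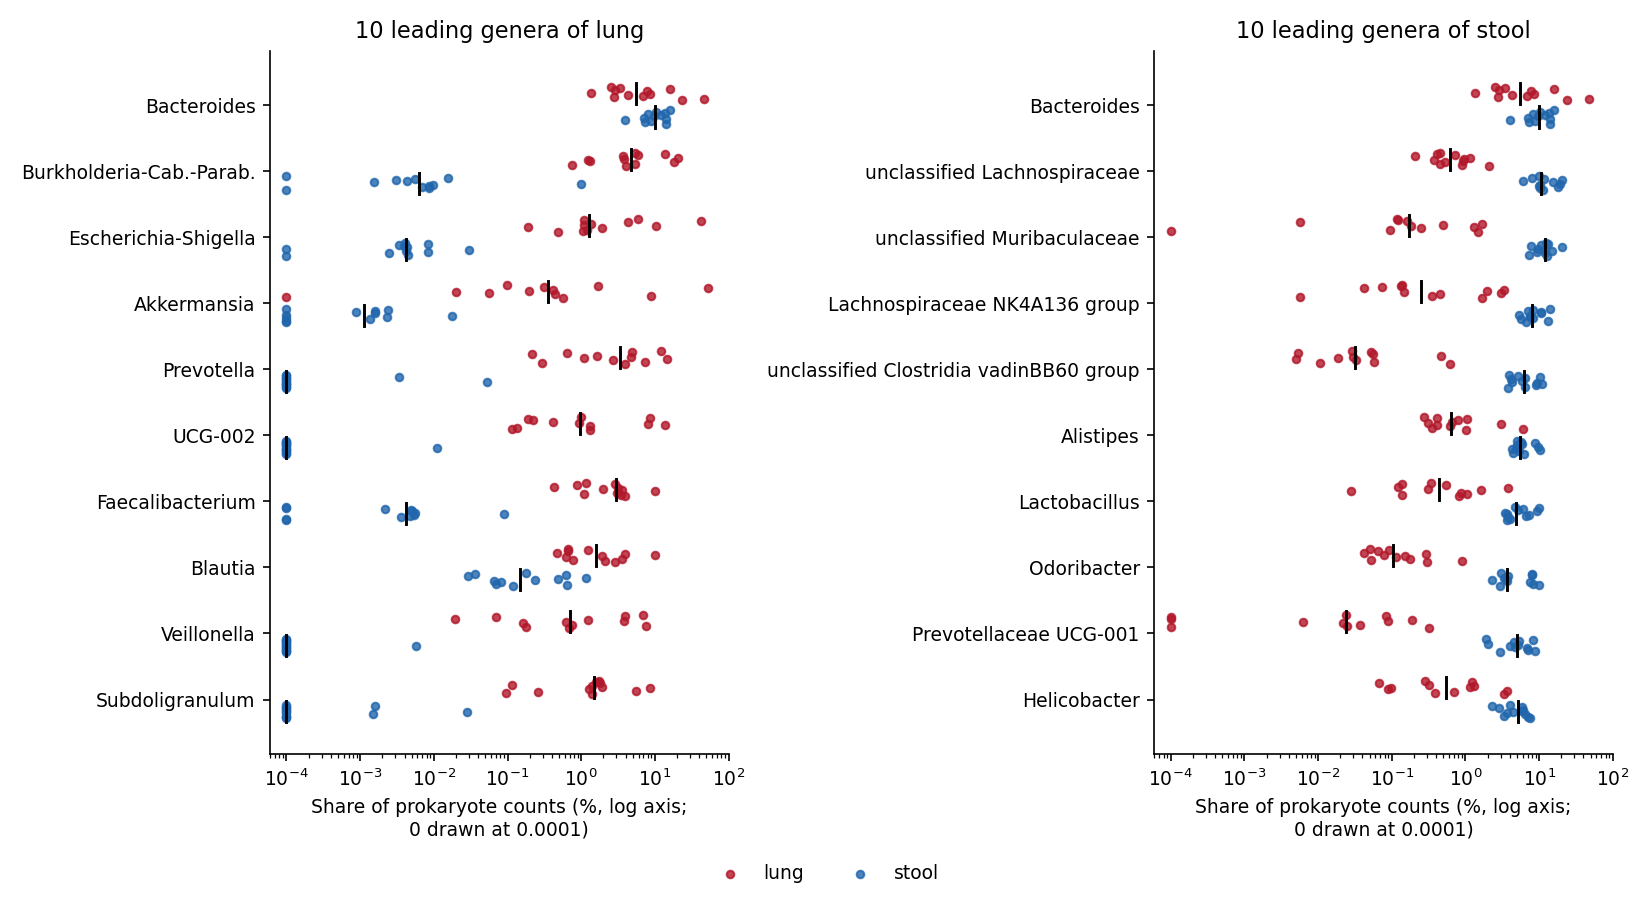
Share of prokaryote counts on a log axis for the 10 leading genera of lung (left) and of stool (right), 1 point per library with 12 lung libraries in red above 12 stool libraries in blue, and a bar at each median; shares of 0 are drawn at the left edge. Bacteroides overlaps between the sites, whereas Prevotella is at 0 in 10 stool libraries and unclassified Clostridia vadinBB60 group reaches at most 0.622% in lung.

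The genera that dominated stool held far smaller shares of most lung libraries, although each was detected in lung. Unclassified Lachnospiraceae, fermenting Firmicutes with no genus name, ran from 0.208% over 0.619% to 2.11% in lung, against 5.96%, 10.8% and 20.4% in stool, with no overlap (log2 difference -5.05, SE 0.62, adjusted p = 5.18e-09, edgeR). Unclassified Muribaculaceae, the main Bacteroidota family of the mouse gut, ran from 0% over 0.172% to 1.70% in lung, against 7.27%, 12.1% and 20.6% in stool (log2 difference -5.62, SE 0.81, adjusted p = 9.57e-08, edgeR). Lachnospiraceae NK4A136 group, a butyrate-forming label typical of mice, ran from 0.00573% over 0.247% to 3.31% in lung, against 5.29%, 7.95% and 14.3% in stool. Odoribacter and Prevotellaceae UCG-001 averaged 0.194% ± 0.242 and 0.0664% ± 0.0979 in lung, against 5.37% ± 2.72 and 5.17% ± 2.29 in stool (SD, n = 12 each), and neither overlapped between the sites.

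Some stool leaders came closer to lung. Alistipes, a bile-tolerant Bacteroidota genus, ran from 0.273% over 0.640% to 5.99% in lung, against 4.32%, 5.48% and 10.2% in stool, and its highest lung library, lung control 5, lies inside the stool range (log2 difference -3.11, SE 0.71, adjusted p = 0.000123, edgeR). Lactobacillus, a lactic acid bacterium of the mouse forestomach and gut, ran from 0.0281% over 0.442% to 3.78% in lung, against 3.49%, 4.90% and 10.1% in stool (log2 difference -3.77, SE 0.72, adjusted p = 1.45e-05, edgeR). Helicobacter, which colonises gut mucus, ran from 0.0674% over 0.548% to 3.68% in lung, against 2.30%, 5.14% and 7.41% in stool (log2 difference -3.46, SE 0.69, adjusted p = 2.50e-05, edgeR). Their highest lung libraries reach the lower part of the stool range. Bacteroides did not differ beyond its spread: 1.36%, 5.57% and 47.1% as lowest, median and highest share in lung, against 3.97%, 9.98% and 16.0% in stool (log2 difference -0.64, SE 0.58, adjusted p = 0.302, edgeR).

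The lowest changes were genera nearly missing from lung. Muribaculum, a named Muribaculaceae genus, had 4 counts in 1 lung library and 0.124% over 0.388% to 0.727% in stool (log2 difference -10.86, SE 1.56, adjusted p = 9.96e-08, edgeR). Mucispirillum, a resident of gut mucus, was detected in 2 lung libraries and in all stool libraries, where it ran from 0.0138% over 0.314% to 0.760% (log2 difference -8.15, SE 1.57, adjusted p = 1.56e-05, edgeR). Rikenella, a fermenting Bacteroidota genus, was detected in 5 lung libraries at up to 0.157% and averaged 0.891% ± 0.369 in stool (SD, n = 12). Candidatus Arthromitus, the segmented filamentous bacteria that attach to the ileal wall, was in 2 lung and 7 stool libraries, at up to 0.00573% and 0.305%.

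Functional lists split between the sites by member rather than as a whole, in edgeR counts that stand beside 66.1% higher and 17.1% lower among all genera tested. Of 16 butyrate producers tested, 8 were higher and 5 lower in lung, with Faecalibacterium and Subdoligranulum on 1 side and Odoribacter and Lachnospiraceae NK4A136 group on the other. Their summed share was 9.83% ± 6.33 in lung and 17.1% ± 4.31 in stool (SD, n = 12 each). Of 12 glycan-degrading Bacteroidota tested, 4 were higher and 5 lower, and of 5 mucus-associated genera 2 were higher, Akkermansia and Ruminococcus torques group, and 3 lower, Helicobacter and Mucispirillum among them. Of 5 lactic acid bacteria and bifidobacteria, 4 were higher and Lactobacillus was lower. Of the 5, 2 had no stool count and could only be called higher, and the permutation test called 2 higher and 1 lower. Bifidobacterium, which ferments milk and plant sugars, averaged 1.06% ± 1.28 in lung and 0.00305% ± 0.00906 in stool (log2 difference 8.50, SE 1.79, adjusted p = 4.86e-05, edgeR). Neither of 2 sulfate and sulfite reducers passed edgeR's test, while 1 was called higher by the permutation test. Their summed share was 0.417% ± 0.322 in lung and 0.0790% ± 0.0621 in stool (SD, n = 12 each). By family, 24 of 44 Lachnospiraceae genera were higher and 10 lower, 7 of 14 Ruminococcaceae were higher and 1 lower, 4 of 9 Oscillospiraceae were higher and 3 lower, 7 of 8 Erysipelotrichaceae and 4 of 6 Pasteurellaceae were higher with none lower, and both Muribaculaceae genera were lower. Genera with no stool count passed the count filter through lung alone and could only be called higher. They were 1 of the butyrate producers, 10 Lachnospiraceae, 3 Ruminococcaceae, 4 Erysipelotrichaceae and 3 Pasteurellaceae genera. A further 1 Lachnospiraceae genus had no lung count and could only be called lower. The permutation test called 38.1% of all genera higher and 16.0% lower. By that test Erysipelotrichaceae had 3 higher and 1 lower, and Lachnospiraceae 17 higher and 9 lower. Median log2 differences were 4.37 for butyrate producers, -1.06 for glycan degraders, -3.46 for mucus genera and 5.38 for Lachnospiraceae genera, beside 6.44 for all genera tested.

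At the level of single features the sites had little in common. Lung libraries held 3607 features and stool libraries 2018, and 367 were found in both, 10.2% of those of lung and 18.2% of those of stool. At genus level the same count was 167 of 423 lung genera (39.5%) and 167 of 180 stool genera (92.8%). Of the 367 shared features, 149 were found in stool control 1 and in no other stool library. These 149 held between 7.78% and 33.3% of the counts of a lung library, with a median of 23.2%, and 6.15% of the counts of stool control 1. Among them, features of Bacteroides averaged 3.61% of lung counts and held 0.132% of stool control 1, features of Blautia averaged 1.65% and held 0.0498%, and features of Lachnospiraceae NK4A136 group averaged 0.306% and held 4.52%. edgeR called 1056 of 1157 features tested (91.3%), 434 higher in lung (37.5%) and 53.8% lower. Of these, 249 of the higher ones had no stool count and 512 of the lower ones no lung count, so each could be called in 1 direction only. On simulated counts, false calls of features exceeded the adjusted threshold, a limit that also holds for the feature calls within genera below. On thinned libraries the exact permutation test called 166 higher and 350 lower. The edgeR fit of features has its own TMM scale, with a median log2 difference of -5.14 over all features tested. Log2 differences of features therefore cannot be set against those of genera.

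Few features were abundant at both sites, although most abundant features of either site were detected at the other. A mean share of 0.1% or more was reached by 155 features in lung, of which 61.3% were also detected in stool, and by 183 features in stool, of which 57.4% were also detected in lung. The lung figure includes features found in stool control 1 and in no other stool library. Among these are the leading lung features of Alistipes, Blautia and Parabacteroides. The figure was not computed without stool control 1. Only 6 features reached it in both. These 6 were picked after their values were seen. Of them 2 belonged to Helicobacter, 2 to Lactobacillus, 1 to unclassified Lachnospiraceae and 1 to Bacteroides. A Lactobacillus feature was in 4 lung and 9 stool libraries, and the Bacteroides feature was at 0.128% ± 0.196 in lung and 5.89% ± 2.67 in stool (SD, n = 12 each).

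Each lung library held between 2.31% and 63.1% of its counts in features found in at least 3 stool libraries, with a median of 21.3%, and each stool library held between 34.2% and 51.3%, with a median of 39.6%, in features found in at least 3 lung libraries. Within a site sharing was higher: features of at least 3 other lung libraries held a median of 73.3% of lung counts, and features of at least 3 other stool libraries a median of 93.98% of stool counts. Features of at least 3 oral swab libraries held a median of 61.0% of lung counts and 77.9% of stool counts, and features of at least 3 colon libraries 54.3% and 83.4%. After thinning to a common depth the shares with the other site were 12.3% for lung and 31.999% for stool. Features found in any stool library held a median of 59.8% of lung counts, and 31.5% when stool control 1 was left out.

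**Figure D3:**
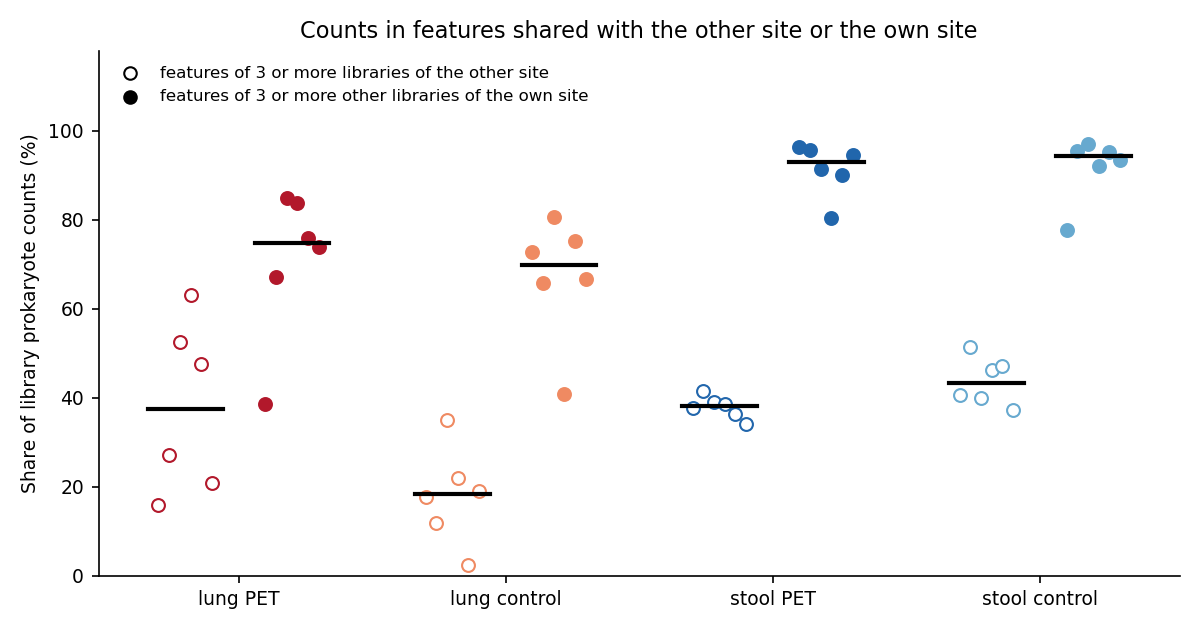
Share of each library's prokaryote counts in features found in at least 3 libraries of the other site (open points) or in at least 3 other libraries of its own site (filled points), with bars at medians, for 6 libraries each of PET lung, control lung, PET stool and control stool. Each library's open point lies below its own filled point, and lung libraries spread from 2.31% to 63.1% for features of stool.

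Most lung counts in features found in at least 3 stool libraries belonged to genera that were sparse in stool. A gut genus is here a genus with a mean stool share of at least 0.1% that was found in at least 6 stool libraries, and 42 met this rule, with 98.3% ± 1.59 of stool counts and 24.5% ± 17.6 of lung counts (SD, n = 12 each). A genus sparse in these stool libraries falls outside the rule whatever its usual habitat, as Escherichia-Shigella, Akkermansia and Faecalibacterium did. The rule therefore does not say which lung counts are of gut bacteria. Features of gut genera found in at least 3 stool libraries held 0.333% over 1.56% to 13.1% of lung counts, while features of other genera found in at least 3 stool libraries held 1.98% over 17.6% to 62.4%. The same 2 sets held medians of 95.9% and 0.894% of stool counts. A single feature of Burkholderia-Caballeronia-Paraburkholderia held a mean of 6.99% of lung counts and 0.0870% of stool counts, a single feature of Escherichia-Shigella 5.66% and 0.00604%, and a single feature of Akkermansia, classified as Akkermansia muciniphila, 5.43% and 0.00218%. The last 2 means rest on 1 library: the Escherichia-Shigella feature held 42.7% of lung PET 3, with a mean of 2.29% without it and a median of 1.24%, and the Akkermansia feature held 52.7% of lung PET 4, with a mean of 1.14% without it and a median of 0.359%. With Faecalibacterium the 3 genera made up 71.5% of the mean lung share in features found in at least 3 stool libraries, 67.4% without lung PET 3 and 65.7% without lung PET 4. The Akkermansia feature was found in 11 lung and 6 stool libraries.

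For gut genera found at both sites, the question was whether the same features carry them. Of the 42 gut genera, 36 were found in at least 3 lung libraries, and the other 6 were A2, Acetatifactor, Lachnospiraceae UCG-006, Mucispirillum, Muribaculum and Tuzzerella. The make-up of a genus, the shares of its own features among its counts, was compared in 14 genera with at least 100 counts in at least 4 libraries of each site. All 14 differed between lung and stool by an exact permutation test of R2 within arms (100% of those tested, adjusted p from 8.20e-06 to 0.0123), with R2 from 0.164 over 0.329 to 0.595. All 14 also passed with presence or absence of features in place of shares, and 13 of the 13 that could be tested without stool control 1 passed. The overlap of the mean profiles, 100% for identical and 0% for disjoint profiles, had a median of 3.61% between lung and stool. Between PET and control libraries of the same site its median was 50.8% within lung and 71.7% within stool, and the lung-stool overlap lay below both in 12 of the 14 genera, the exceptions being Lactobacillus and unclassified Muribaculaceae, whose PET and control lung profiles overlapped by 42.9% and 14.3%.

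**Figure D4:**
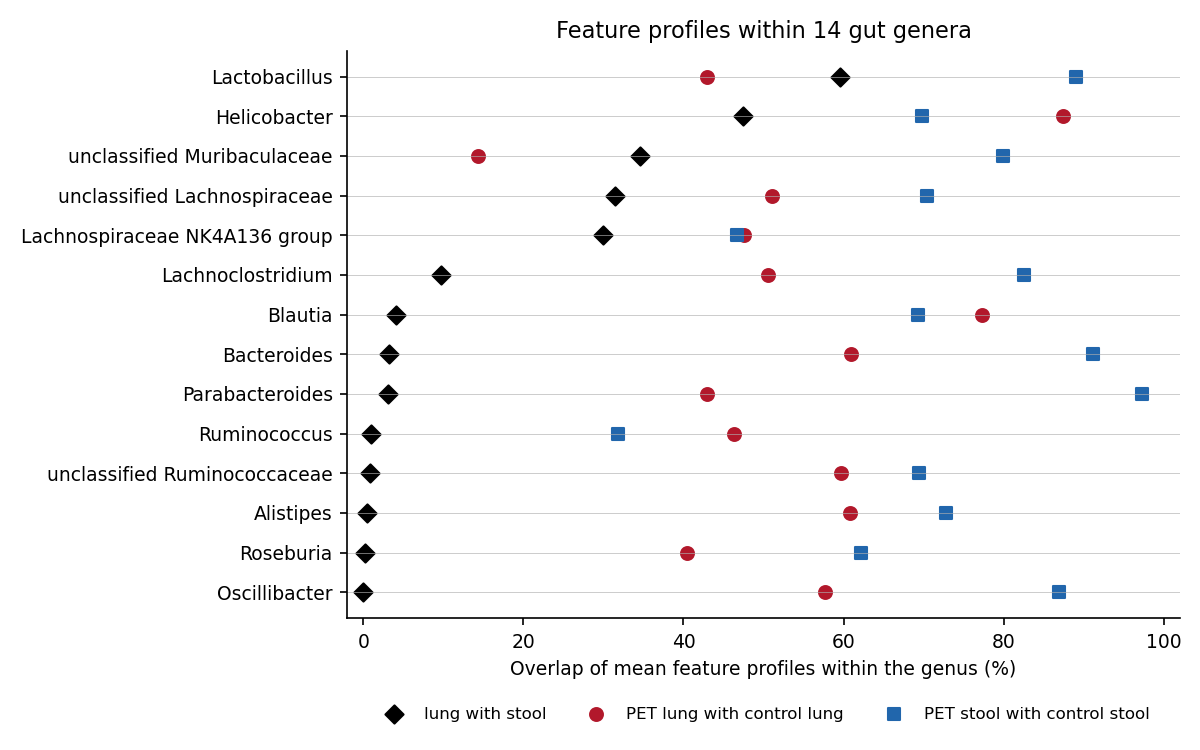
Overlap of mean feature profiles within each of the 14 gut genera tested, in percent, for lung with stool (black diamonds), PET lung with control lung (red circles) and PET stool with control stool (blue squares). The lung-stool overlap is under 10% in 9 genera and highest in Lactobacillus, at 59.6%, and Helicobacter, at 47.5%.

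Bacteroides, with mean shares of 10.6% in lung and 10.4% in stool, was made of different features at the 2 sites. Of its 151 features at either site, 79 were found in stool and 31 in both, of which 13 were found in a stool library other than stool control 1. Features found in any stool library held 80.4% of the pooled lung counts of the genus, but those found in at least 3 stool libraries held 0.458%. The leading stool feature, classified as Bacteroides acidifaciens, a mouse gut species, ran from 0% over 0.0415% to 0.671% of lung counts, against 2.33%, 5.69% and 9.83% of stool counts. It was lower in lung with a log2 difference of -4.95 (SE 0.99, adjusted p = 0.000182, edgeR over all features). The leading lung feature, classified as Bacteroides vulgatus, ran from 0% over 0.560% to 24.2% in lung and was found in 2 stool libraries at up to 0.0379% (log2 difference 11.43, SE 2.18, adjusted p = 0.000116, edgeR). Of 42 features of the genus that were tested, 35 were called higher in lung and 6 lower, beside 37.5% and 53.8% of all features tested. Those with no stool count could only be called higher and those with no lung count only lower. The number of such features in this genus is not given here. The profile overlap was 3.15% (R2 = 0.590, exact permutation, adjusted p = 8.20e-06).

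Further gut genera were also carried by largely different features, both where their shares were alike and where they were not. Parabacteroides, a relative of Bacteroides, did not differ as a genus (log2 difference -1.49, SE 0.86, adjusted p = 0.104, edgeR, but 0.0342 without lung PET 4 and 0.0388 without lung control 5). Its leading lung feature, classified as Parabacteroides merdae, was in 10 lung libraries at a mean of 0.153% and in 1 stool library, and its leading stool feature was in 4 lung libraries at a mean of 0.0160% and in 11 stool libraries at 1.68%. Alistipes, at mean shares of 1.24% in lung and 6.28% in stool, had 41 lung and 49 stool features with 6 in both and an overlap of 0.391%; its leading lung feature was in 11 lung libraries and in stool control 1 alone, and its leading stool feature in 1 lung library and 12 stool libraries. Roseburia, a butyrate producer with 0.513% ± 0.522 in lung and 0.632% ± 0.654 in stool (SD, n = 12 each), had an overlap of 0.248%, and its leading stool feature, found in 8 stool libraries, had no count in lung. Unclassified Ruminococcaceae, at 0.9996% in lung and 0.828% in stool, overlapped by 0.793%. Blautia, at 2.42% and 0.310% in lung and stool, overlapped by 4.07%, and Oscillibacter, an Oscillospiraceae genus at 0.147% in lung and 0.892% in stool, by 0%.

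Helicobacter and Lactobacillus were the exceptions, carried at both sites by the same leading feature. The Helicobacter feature, classified as Helicobacter apodemus, ran from 0.0549% over 0.262% to 1.73% in lung, against 0.0175%, 1.35% and 3.09% in stool, and was in all 24 libraries (log2 difference -0.91, SE 0.77, adjusted p = 0.251, edgeR). That log2 difference is on the scale of the feature fit, not on that of the genus fit. The feature made up 52.5% of the genus in lung and 34.9% in stool. The Lactobacillus feature was in 11 lung and 12 stool libraries and ran from 0% over 0.131% to 0.895% in lung, against 0.0579%, 2.46% and 5.37% in stool (log2 difference -2.34, SE 1.03, adjusted p = 0.0362, edgeR). Features found in at least 3 stool libraries held 71.0% of lung Helicobacter counts and 89.3% of lung Lactobacillus counts. The make-up still differed between the sites in both, with R2 of 0.280 and 0.164 (exact permutation, adjusted p = 1.64e-05 and 0.0123), and unclassified Lachnospiraceae, Lachnospiraceae NK4A136 group and unclassified Muribaculaceae lay between, with overlaps of 31.4%, 29.9% and 34.5%. Over the 36 gut genera found at both sites, 6 had the same leading feature and 29 had features called in both directions. Of all features tested 91.3% were called by edgeR, and a feature with no count at 1 site could be called in 1 direction only. No background share stands beside the 29.

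**Figure D5:**
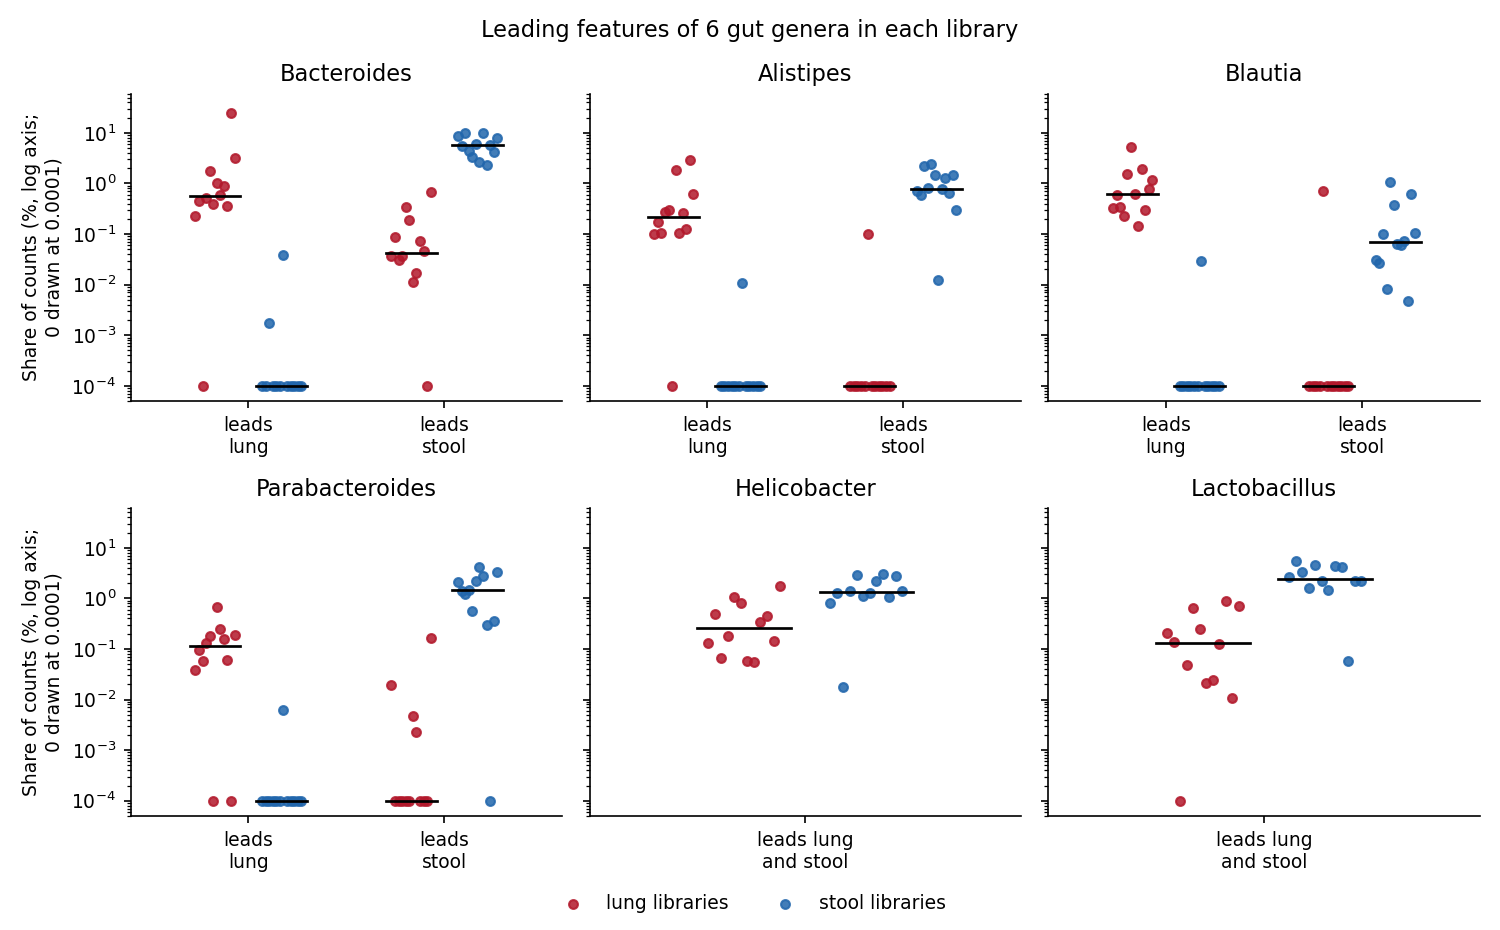
Share of counts, on a log axis, of the feature that leads each of 6 gut genera in lung and of the feature that leads it in stool, with 12 lung libraries in red left of 12 stool libraries in blue and bars at medians; shares of 0 are drawn at the lower edge. In Bacteroides, Alistipes, Blautia and Parabacteroides a different feature leads each site, whereas in Helicobacter and Lactobacillus 1 feature leads both.

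Few genera had a lung-stool difference that changed with exposure, and none of these calls held without stool control 1. The interaction of site and exposure passed edgeR's test in 5 of 257 genera (1.95%), all with a higher signed lung-minus-stool log2 difference in PET mice, and 51 genera had an unadjusted p under 0.05. They were Alloprevotella (interaction 10.97, SE 2.81, adjusted p = 0.0260), Paraprevotella (12.40), Lachnospiraceae UCG-006 (10.41), Burkholderia-Caballeronia-Paraburkholderia (6.75) and Christensenellaceae R-7 group (7.64). Alloprevotella, a saccharolytic oral and gut genus, averaged 1.32% in PET lung and 1.47% in control lung, and 0.000133% in PET stool against 0.269% in control stool, where stool control 1 alone held 1.61%. Paraprevotella was found in stool control 1 at 0.949% and in no other stool library. Lachnospiraceae UCG-006 was in a single lung library, lung PET 5, at 0.555%. With stool control 1 left out 0 genera passed, and the interaction was -2.75 for Alloprevotella, -0.27 for Paraprevotella, 1.18 for Burkholderia-Caballeronia-Paraburkholderia and 1.38 for Christensenellaceae R-7 group. For Lachnospiraceae UCG-006 it was no smaller, at 10.64, with an adjusted p of 0.0969 by edgeR, and without lung PET 5 it was 0.64. Its lung-minus-stool difference was -4.34 in PET mice and -14.72 in control mice. No genus passed without lung PET 5, without lung control 1 or without lung control 6 either, and up to 16 passed when another single library was left out. The lung share in features of at least 3 stool libraries was 15.9%, 37.4% and 63.1% as lowest, median and highest in PET lung, against 2.31%, 18.4% and 34.9% in control lung. The means differed by 19.9 percentage points, and the groups overlap (exact two-sided permutation test over 924 arrangements, p = 0.0628).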

How the data were processed

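The deposited table holds raw counts per sequence feature, and the deposited taxonomy gives each feature a label and a classifier confidence, a fraction; no source used here names the denoiser, the classifier or its database. Among tools and builds, cutadapt, Bowtie2 and GRCm39 appear in the submitters' processing notes. Features without a bacterial or archaeal label, chloroplasts and mitochondria were left out, which removed 619 features with no taxonomy line. Counts were summed by genus and tested with edgeR 4.0.16 in R 4.3.3 (TMM, quasi-likelihood, at least 10 counts and 3 libraries, exposure as a block, adjusted p under 0.05). Exact permutation tests shuffled site labels within arms, in Python 3.11.15 with scipy 1.17.1. Lists were described by counts and medians, with genera absent from a site at a floor of 3 counts over its 12 libraries. DESeq2 1.42.0 and limma 3.58.1 were alternatives. On simulated counts, false calls kept to the adjusted threshold for genera and exceeded it for features. The simulation changed a minority of taxa, up or down at random, with a single dispersion for all. The real counts differ in these respects, so it does not give the rate of false calls here. Genera named in the text are the 10 leading ones of each site, the 12 highest and 12 lowest log2 differences among called genera with a mean share of at least 0.05%, up to 4 members of each list, up to 6 interaction genera, and the gut genera with the highest shares or the lowest and highest profile overlaps. Other names were chosen after their values were seen. The members and lists were chosen with earlier results of these data known.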

Additional observations from a re-analysis of the deposited data

Results flagged for a closer look

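A library can lie far from the other 5 of its group in a single measure, and for normally distributed values chance alone does this in about 1 in 20 groups. Many shares below have their nearest neighbour at 0, where that rate need not hold. The number of values screened is not given, so the number of flags due to chance cannot be judged. The following values had a gap to their nearest neighbour above Dixon's 95% critical value for 6 libraries. Lung PET 1 held 904 features of richness and 0.333% Aggregatibacter. In lung PET 6 there were 0.0893% Deferribacterota, 0.0893% Mucispirillum and 0% CAG-352. Lung PET 4 had 0.116% Subdoligranulum, 0.0363% Cutibacterium and 0% Corynebacterium. For lung PET 5 the values were 0.555% Lachnospiraceae UCG-006, 0.157% Rikenella and 4.31% Bifidobacterium. Lung control 5 held 0% unclassified Muribaculaceae, 0% Bifidobacterium, 0.736% Oscillibacter and 0% Paraprevotella. In lung control 4 there were 0.0431% unclassified Oscillospiraceae. Stool PET 4 had 59.2% Firmicutes, 35.1% Bacteroidota and 0.000885% Porphyromonas. For stool PET 6 the values were 0% Escherichia-Shigella, 0.00337% Streptococcus, 0.00153% Corynebacterium, 0.00429% Holdemanella and 0.00245% Turicibacter. Stool PET 3 held 0.00334% Prevotella and 0.00157% Leifsonia. In stool PET 2 there were 0.00159% Subdoligranulum, 0.000797% Alloprevotella, 0.00372% Staphylococcus and 0.00186% CAG-352. Stool PET 1 had 0.00163% Bifidobacterium. For stool PET 5 the values were 0.000691% Pseudomonas. Stool control 1 held 564 features of richness, 0.0521% Prevotella, 0.0111% UCG-002, 0.00565% Veillonella, 1.61% Alloprevotella, 0.0123% Ruminococcus torques group, 0.00199% Corynebacterium, 0.00249% Pseudomonas, 0.00382% Turicibacter, 0.000996% Haemophilus, 0.949% Paraprevotella and 0.012% Christensenellaceae R-7 group. In stool control 5 there were 0% Verrucomicrobiota and 0.000448% Euryarchaeota. Stool control 6 had 0% Streptococcus. For stool control 4 the values were 0% Parabacteroides. Low shares among these stand for few counts.

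The lung-minus-stool difference also changed with exposure, by edgeR's interaction test, in Alloprevotella (10.97), Paraprevotella (12.40), Lachnospiraceae UCG-006 (10.41), Burkholderia-Caballeronia-Paraburkholderia (6.75) and Christensenellaceae R-7 group (7.64), each as PET minus control on the log2 scale. None of these calls held without stool control 1, where the Lachnospiraceae UCG-006 interaction was 10.64 (adjusted p = 0.0969, edgeR) and the other 4 ran from -2.75 to 1.38.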

How the results depend on the processing

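No paired analysis was possible because replicate numbers follow accession order and no label ties libraries to animals. Genera called higher in lung made up 66.1% of those tested, but 42.8% (110) with DESeq2, 56.5% with a filter of 50 counts and 6 libraries, 75.7% (330) with no filter, 32.7% (84) with limma on centred log ratios, 52.2% in control mice only, 56.1% in PET mice only, 70.4% (81) as families and 38.1% (98) by exact permutation on thinned shares; genera called lower made up 17.1% (44), but 25.7% (66) with centred log ratios and 15.7% (18) as families. Features higher numbered 434, but 187 with the stricter filter and 166 by permutation, and features lower made up 53.8% of those tested, with 350 called by permutation. The stricter filter and family level test fewer taxa and single arms use fewer libraries; the cause of the other shifts was not tested. Interaction calls numbered 5 higher and 0 lower, 4 and 2 with TMMwsp, 7 and 4 with DESeq2, and 0 higher with library totals, the stricter filter or without the 4 libraries numbered apart in the labels. Lung counts in stool features had a median of 21.3%, 59.8% when 1 stool library sufficed and 1.55% for features with a mean stool share of at least 0.1%. Stool counts in lung features had a median of 39.6%, 65.8% with 1 library, 26.6% with 6, 31.999% after thinning and 15.2% for features of at least 0.1%. The Shannon difference was 0.53 at genus level, -0.67 without features of only 1 library of the series and -0.06 without the 4 libraries. For richness these were 84.3, -126 and 64.7. Bacteroides reversed in control mice (0.0873), Blautia with DESeq2 (-0.0451) and centred log ratios (-0.71), Paraprevotella with no block (-1.29) and in control mice (-2.14), unclassified Ruminococcaceae with totals (0.0425) and in control mice (0.18), and, without stool control 1, the interaction of Alloprevotella (-2.75, up to 15.05 without another library) and the interaction of Paraprevotella (-0.27, up to 14.40). Leaving out 1 library gave 63.8% to 69.0% of genera higher and 16.0% to 17.8% lower, 367 to 432 features higher, 0 to 16 interactions higher and 0 to 2 lower, 12 to 13 phyla, a Shannon difference of -0.295 to 0.0411 and a richness difference of -13.0 to 56.7.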
